A study of Homo sapiens with 6 samples.

Results

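CLK1, CLK2, CLK3, CLK4, SRPK1, SRPK2, DYRK1A, PRPF4B, CCNL1 and CCNL2 encode protein kinases that phosphorylate splicing proteins, and the L-type cyclins. They were chosen by name, 10 genes of the 60664 in the count table, and each matched 1 row by its Ensembl ID. RNA was sequenced from the human colorectal cancer line HCT-8 after it was transfected with a plasmid for a short hairpin RNA against PNISR (shPNISR, 3 libraries) or with a control hairpin plasmid (shNC, 3 libraries). All cells grew in DMEM with 10% fetal bovine serum. The series asks how PNISR, a serine and arginine rich protein that binds the splicing protein PNN, affects alternative splicing. The values here are reads per gene, so they show the amount of each kinase's RNA and not which isoform it was.

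SR proteins are splicing factors with a tail rich in arginine and serine, the RS domain, and the phosphates on that tail decide where the protein sits and whether it can bind the splicing machinery. SRPK kinases act mainly in the cytoplasm and let SR proteins be imported into the nucleus, while CLK kinases act in the nucleus and release SR proteins from nuclear speckles, where they are stored. L-type cyclins carry RS domains of their own, sit in the speckles and bind the CDK11 kinases. CLK1 and CLK4 are known for transcripts that keep an intron and are held in the nucleus. The GENCODE release 29 annotation lists 8 retained-intron transcripts among 15 for CLK1, 7 among 15 for CLK4, 8 among 27 for CLK3 and 0 among 7 for CLK2. It lists 16 among 26 for CCNL1 and 9 among 20 for CCNL2, 4 among 13 for SRPK1 and 2 among 15 for SRPK2, and 4 among 24 for DYRK1A and 1 among 9 for PRPF4B. Reads of such transcripts fall into the same gene count as the coding mRNA.

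The 4 CLK genes are members of 1 family, named after the LAMMER motif of the kinase domain. The 33 bases around that motif are shown because reads could be shared between copies only where the letters are the same. Capitals mark the 18 bases that line up with the motif.
CLK1, chr2:200854648-200854680, minus strand, exon 11: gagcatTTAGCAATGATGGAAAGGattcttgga
CLK2, chr1:155264253-155264285, minus strand, exon 11: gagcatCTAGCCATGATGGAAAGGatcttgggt
CLK3, chr15:74628619-74628651, plus strand, exon 11: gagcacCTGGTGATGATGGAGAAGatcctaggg
CLK4, chr5:178605335-178605367, minus strand, exon 11: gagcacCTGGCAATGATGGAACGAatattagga
The sequences come from GENCODE release 29 transcripts on GRCh38. CLK1 and CLK2 differ at 6 of the 33 bases, CLK1 and CLK4 at 8, and CLK1 and CLK3 at 10. Over whole transcripts, words of 50 bases that also occur in another gene made up 0.11% of CLK1, 3.27% of CLK2 and 1.85% of CLK4. The processed pseudogenes CLK2P1, CLK3P2, SRPK2P and CCNL2P1 had 6, 0, 1 and 3 reads over all 6 libraries. CLK3 had the largest share of the 10 genes, 6.32%, or 1327 words, of which 606 occur in EDC3, a gene on the other strand that held more of them than any other gene. EDC3 had 11037 counts in all and CLK3 7184, and whether reads were counted by strand is not given here, so the CLK3 count may hold some reads of EDC3.

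PNISR, the hairpin's target, had 313, 333 and 450 reads in shPNISR libraries 1 to 3 and 1002, 776 and 943 reads in shNC libraries 1 to 3. In CPM, which are counts scaled to library size with TMM factors, its level in shPNISR was 39.7% of that in shNC (log2 fold change -1.33 ± 0.15 SE, edgeR quasi-likelihood test, adjusted p = 8.73e-05). Total counts ran from 15703210 to 17299847 per library in shPNISR and from 15049485 to 17977803 in shNC. The summed level of 9 colorectal epithelial markers was 4383 to 5529 CPM in shPNISR and 4061 to 4511 CPM in shNC. KRT20 was under 1 CPM in every library, and PTPRC of leukocytes and COL1A2 and FAP of fibroblasts had no reads. The library shNC 2 stood apart from shNC 1 and shNC 3: on the first principal component, with 44.8% of the variance, the shPNISR libraries scored 16.9 to 24.6, shNC 2 scored 0.787, and shNC 1 and shNC 3 scored -35.2 and -31.2. Mitochondrial transcripts took 1.61% to 2.00% of counts in shPNISR, and 1.80% in shNC 2, 2.42% in shNC 1 and 2.48% in shNC 3. The labels do not say that libraries came from separate cultures. Each p therefore sets a group difference only against the scatter of these libraries within their groups, and that scatter may be technical.

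None of the 10 kinase and cyclin genes passed the test between shPNISR and shNC at an adjusted p of 0.05, where 3.14% of the 16102 tested genes did, 2.3% higher and 0.832% lower (two-sided quasi-likelihood test of edgeR, with p adjusted by Benjamini-Hochberg over all tested genes). DESeq2 and limma voom also called 0 of the 10. All 10 were expressed well enough to be tested. Their fitted changes were small and mostly in 1 direction: 9 of 10 lay below 0, against 52.1% of all tested genes. Their median was -0.27 on the log2 scale, against -0.013 for all tested genes. The 10 genes are not separate observations, because many varied together over the 6 libraries. By Pearson correlation of log2 CPM, r was 0.96 for PRPF4B and CCNL2 and 0.94 for CLK4 and CCNL1. It was -0.88 for CLK3 and CCNL2. These pairs were picked for their high values, and other pairs were weak, such as 0.05 for CLK2 and CCNL2 and 0.16 for CLK1 and SRPK2. The libraries of both groups enter r, so a difference between the groups also enters it. At an unadjusted p under 0.05, 4 of the 10 were lower in shPNISR (CCNL1, PRPF4B, DYRK1A and SRPK1), against 7.79% of all tested genes, and none was higher. The CPM of the groups did not overlap in 2 members, SRPK1 and DYRK1A, both lower in shPNISR, against 9.58% of all tested genes. In bulk RNA, fewer cells that express a gene and less RNA per cell cannot be told apart.

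**Figure D1:**
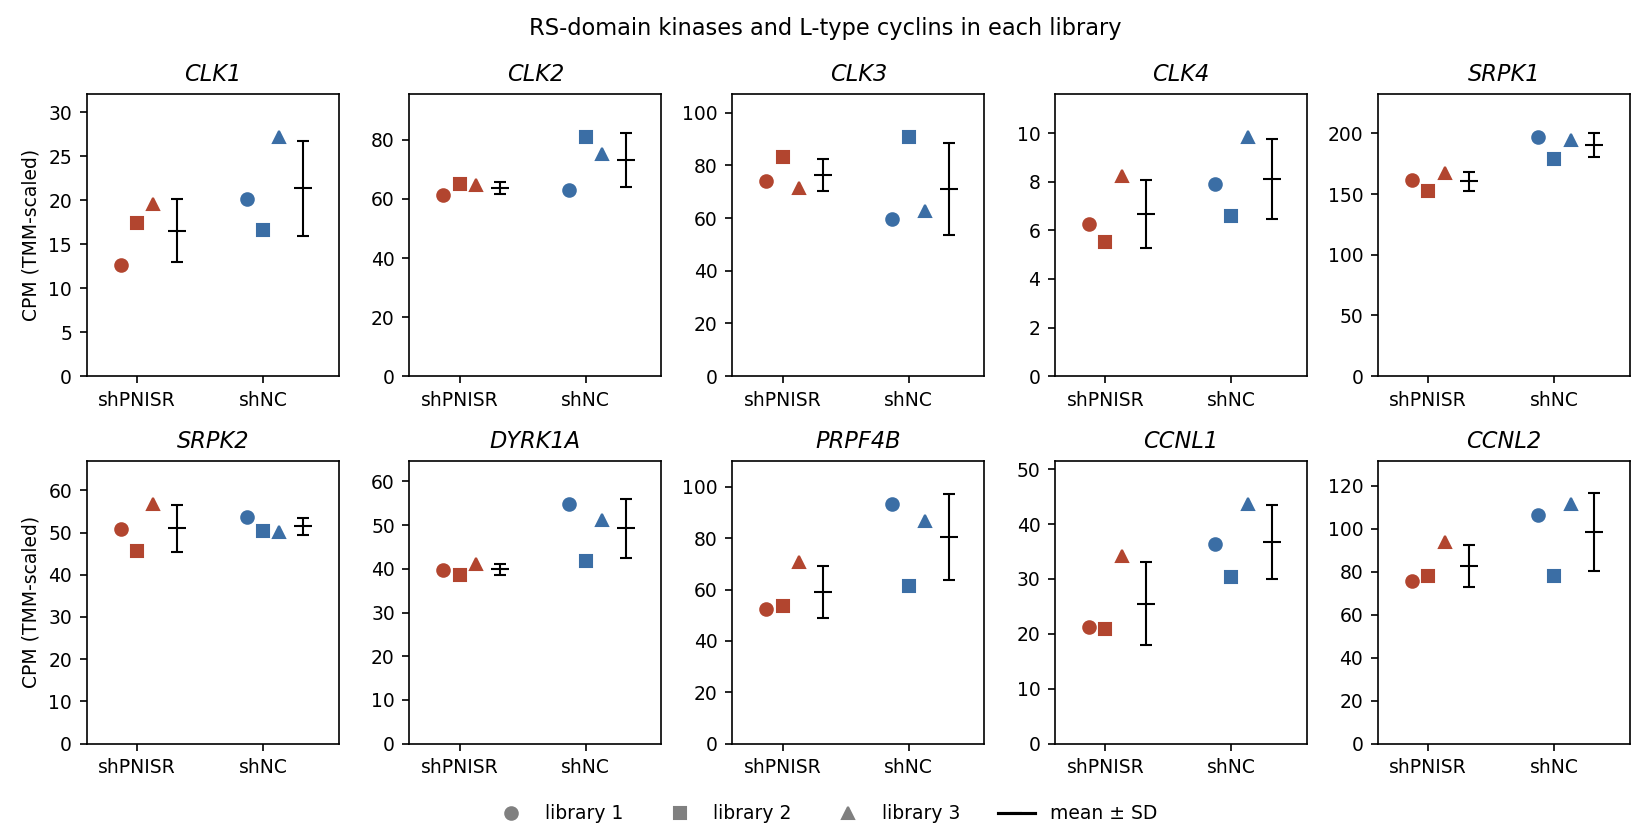
CPM (TMM-scaled, axis from 0) of each gene in the 3 shPNISR libraries (red) and the 3 shNC libraries (blue), with mean ± SD in black; the symbol gives the library number. Only SRPK1 and DYRK1A have groups that do not overlap, and the square of shNC 2 lies inside the shPNISR range in 6 of the 10 genes.

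None of the 4 nuclear CLK kinases passed the test, and their fitted log2 fold changes ran from -0.37 to 0.10. Gene positions here and below are in GRCh38. CLK1 (ENSG00000013441, chromosome 2 at 200853009 to 200864744, minus strand), which phosphorylates SR proteins in the nucleus and whose own pre-mRNA is a well-known case of a retained intron, had 12.6, 17.4 and 19.6 CPM in shPNISR 1 to 3 and 20.1, 16.6 and 27.2 CPM in shNC 1 to 3. The groups overlapped because shNC 2 fell within the shPNISR range. The fitted log2 fold change was -0.37 ± 0.19 (SE, 95% interval -0.78 to 0.04, adjusted p = 0.334 by edgeR). CLK4 (ENSG00000113240, chromosome 5 at 178602664 to 178630615, minus strand), the closest relative of CLK1, had the lowest read count of the 10 genes, 6.28, 5.52 and 8.22 CPM in shPNISR and 7.89, 6.60 and 9.86 CPM in shNC, which is 89 to 134 and 102 to 148 reads. Both shNC 1 and shNC 2 lay inside the shPNISR range (log2 fold change -0.28 ± 0.21, adjusted p = 0.513 by edgeR).

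CLK2 (ENSG00000176444, chromosome 1 at 155262868 to 155278491, minus strand), which also acts on SR proteins and is known in mouse liver as a regulator of glucose output, was at 61.4, 65.2 and 64.6 CPM in shPNISR and 63.2, 81.1 and 75.2 CPM in shNC. Here shNC 2 was the highest library and shNC 1 lay inside the shPNISR range (log2 fold change -0.20 ± 0.12, adjusted p = 0.403 by edgeR). CLK3 (ENSG00000179335, chromosome 15 at 74598500 to 74645414, plus strand), the fourth kinase of the family, had 74.2, 83.1 and 71.6 CPM in shPNISR and 59.5, 91.0 and 62.6 CPM in shNC. It was the only one of the 10 with a fitted value above 0 (0.10 ± 0.15, 95% interval -0.20 to 0.41, adjusted p = 0.755 by edgeR), and this turned to -0.010 without shNC 1. All 3 shPNISR libraries were above shNC 1 and shNC 3, and shNC 2 was above them all. Without shNC 2 the value was 0.32 (adjusted p = 0.0859).

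Of the cytoplasmic SRPK kinases, SRPK1 was lower in every shPNISR library but did not pass, and SRPK2 overlapped. SRPK1 (ENSG00000096063, chromosome 6 at 35832966 to 35921342, minus strand), the main SR protein kinase of most dividing cells, had 162, 152 and 168 CPM in shPNISR and 197, 179 and 195 CPM in shNC. Every shPNISR library lay below every shNC library, and the level in shPNISR was 84.3% of that in shNC. The log2 fold change was -0.25 ± 0.10 (95% interval -0.46 to -0.03, unadjusted p = 0.0296, adjusted p = 0.221 by edgeR), so the difference did not pass over all genes. In the 18 alternatives the value stayed between -0.29 and -0.19 and passed in none of them. SRPK2 (ENSG00000135250, chromosome 7 at 105110704 to 105399308, minus strand), its paralog, known best from the brain, had 50.8, 45.6 and 56.7 CPM in shPNISR and 53.8, 50.4 and 50.2 CPM in shNC. The groups overlapped fully, with a log2 fold change of -0.012 ± 0.12 and a 95% interval of -0.27 to 0.24 (adjusted p = 0.975 by edgeR). Its sign turned above 0 in 6 of the alternatives.

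DYRK1A and PRPF4B are relatives of the CLK kinases with other spliceosomal targets. DYRK1A (ENSG00000157540, chromosome 21 at 37365573 to 37526358, plus strand), a dosage-sensitive kinase that phosphorylates splicing factors including SF3B1, had 39.8, 38.6 and 41.2 CPM in shPNISR and 54.8, 41.7 and 51.3 CPM in shNC. The groups did not overlap, but shNC 2 was only just above the highest shPNISR library. The log2 fold change was -0.31 ± 0.13 (95% interval -0.57 to -0.04, adjusted p = 0.213 by edgeR), and it was -0.10 once each library was corrected for GC content and exon length. PRPF4B (ENSG00000112739, chromosome 6 at 4021267 to 4064983, plus strand), a kinase of the spliceosome that phosphorylates PRPF6 and PRPF31 of the tri-snRNP, had 52.4, 53.8 and 70.8 CPM in shPNISR and 93.2, 61.5 and 86.7 CPM in shNC. The mean in shPNISR was 73.3% of that in shNC, with shNC 2 inside the shPNISR range. The log2 fold change was -0.45 ± 0.16 (95% interval -0.78 to -0.12), with an unadjusted p = 0.0113 and an adjusted p = 0.139 by edgeR, and -0.29 with the GC and length correction.

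The L-type cyclin CCNL1 had the largest fitted difference of the 10 genes, while CCNL2 was at -0.26. CCNL1 (ENSG00000163660, chromosome 3 at 157146508 to 157160760, minus strand), which binds CDK11 and is found in nuclear speckles, had 21.3, 20.9 and 34.2 CPM in shPNISR and 36.3, 30.3 and 43.6 CPM in shNC, that is 360, 337 and 557 reads against 658, 468 and 655. Libraries shPNISR 1 and shPNISR 2 lay below all shNC libraries, and shPNISR 3 lay above shNC 2. The log2 fold change was -0.53 ± 0.19 (95% interval -0.93 to -0.13, unadjusted p = 0.0128, adjusted p = 0.149 by edgeR), and the mean in shPNISR was 69.3% of that in shNC. Without shPNISR 3 it was -0.80 and passed (adjusted p = 0.0394), where 0.444% of tested genes were called lower. With no low-count filter CCNL1 (-0.54, adjusted p = 0.0105) and PRPF4B (-0.46, adjusted p = 0.0142) were called, where 1.2% of tested genes were called lower. The GC and length correction gave -0.35 for CCNL1.

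CCNL2 (ENSG00000221978, chromosome 1 at 1385711 to 1399328, minus strand), the other L-type cyclin, had 75.9, 78.1 and 93.8 CPM in shPNISR and 106, 77.8 and 111 CPM in shNC. The library shNC 2 sat with shPNISR 1 and shPNISR 2, while shNC 1 and shNC 3 were above all shPNISR libraries. The log2 fold change was -0.26 ± 0.14 (95% interval -0.54 to 0.03, adjusted p = 0.34 by edgeR). The GC and length correction gave -0.29, so it did not bring this value nearer to 0 as it did for CCNL1.

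The number of these genes that were called depended on the library shNC 2. It was the lowest of the 3 shNC libraries in 7 of the 10 genes and the highest in 2, CLK2 and CLK3. Measured from the mean of shNC 1 and shNC 3 on the log2 scale, the median of the 10 genes was -0.45, -0.44 and -0.22 in shPNISR 1 to 3 and -0.37 in shNC 2. The median of all tested genes was within 0.02 of 0 in each library, where the TMM scaling holds it. PRPF4B shifted by -0.78, -0.74 and -0.34 in shPNISR 1 to 3 and by -0.55 in shNC 2. CLK3 shifted by 0.28, 0.44 and 0.23 in shPNISR 1 to 3 and by 0.57 in shNC 2. Thus, measured in this way, shNC 2 moved in the same direction as the knockdown libraries in the cyclins, CLK1, CLK4, PRPF4B, DYRK1A, SRPK1 and CLK3. All of them were measured from the same 2 libraries, so scatter in shNC 1 and shNC 3 shifts the others together. The part of the mitochondrial share, which also lay within the shPNISR range in shNC 2, was not tested.

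**Figure D2:**
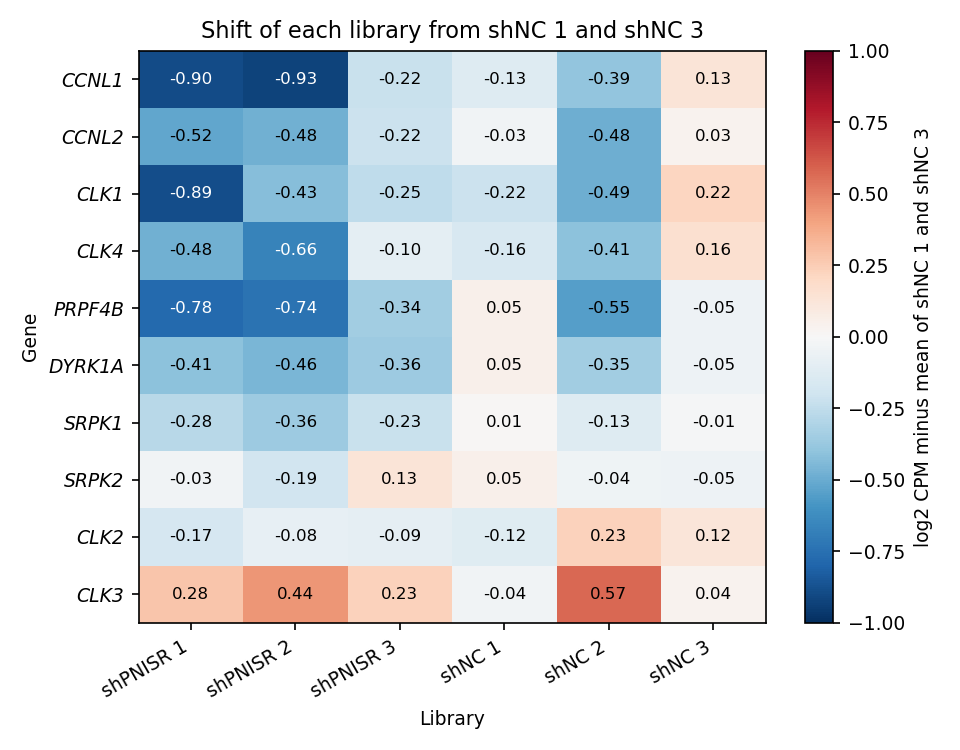
Log2 CPM of each gene (rows) in each library (columns) minus the mean of shNC 1 and shNC 3, so that blue is lower and red higher than those 2 libraries. The shNC 2 column runs from -0.55 for PRPF4B to 0.57 for CLK3 and resembles the shPNISR columns for most genes, but not for CLK2.

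Without shNC 2, 4 of the 10 genes were called lower in shPNISR and none higher, while 4.52% of tested genes were called lower and 7.78% higher. PRPF4B was at -0.61 (adjusted p = 0.0045 by edgeR), DYRK1A at -0.42 (adjusted p = 0.0256), CCNL2 at -0.40 (adjusted p = 0.0312) and CCNL1 at -0.65 (adjusted p = 0.0449). CLK1 stood at -0.52 and did not pass (adjusted p = 0.0706). Leaving out shNC 3 or shPNISR 1 moved CLK1 the other way, to -0.16 and -0.20 (adjusted p = 0.766 and 0.747 by edgeR). With shNC 2 left out and the GC and length correction added, 3 of the 10 were called lower, PRPF4B, CCNL1 and CCNL2, where 8.11% of tested genes were. DYRK1A was then at -0.23 and did not pass (adjusted p = 0.165). No label sets shNC 2 apart, so the fit with all 6 libraries remains the result.

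**Figure D3:**
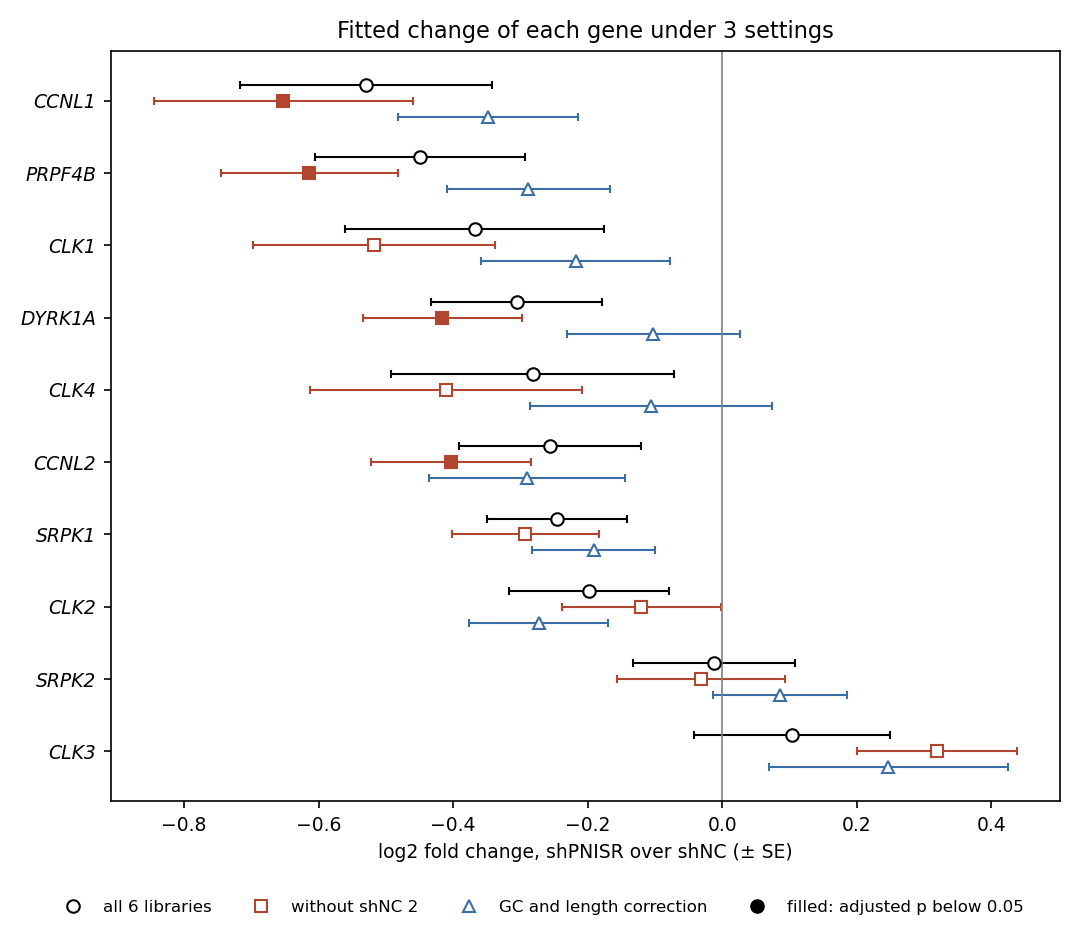
Log2 fold change of shPNISR over shNC ± SE for each gene with all 6 libraries (black circles), without shNC 2 (red squares) and with the GC and length correction (blue triangles); filled symbols passed an adjusted p of 0.05. Filled symbols occur only without shNC 2, for CCNL1, PRPF4B, DYRK1A and CCNL2.

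The genes also differed in base composition. The longest transcripts of CCNL1, CLK1, CLK4 and PRPF4B had 35.2%, 35.7%, 36.2% and 37.5% G and C, those of CLK3, CCNL2 and CLK2 46.5%, 50.8% and 52.3%, and those of SRPK2, DYRK1A and SRPK1 41.6%, 42.2% and 45.0%. The correction moved CLK1 to -0.22 and CLK4 to -0.11, and CLK3 to 0.25, CLK2 to -0.27 and SRPK2 to 0.086. It moved SRPK1 to -0.19 and DYRK1A, which has 26602 bases of annotated exon, to -0.10. It acts on GC content and exon length together, so these shifts are not those of GC content alone. The median of the 10 genes was -0.20 with the correction. None of the 10 passed with it.

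Per kilobase of annotated exon, SRPK1 had the highest level, 24.0 ± 1.15 CPM per kilobase in shPNISR and 28.5 ± 1.49 in shNC (SD, n = 3 each). CLK2 followed with 17.4 ± 0.56 in shPNISR and 19.9 ± 2.49 in shNC, then CCNL2 with 12.1 ± 1.42 and 14.4 ± 2.65, and PRPF4B with 7.50 ± 1.30 and 10.2 ± 2.13 in the same order of groups. SRPK2, at 8.05 ± 0.88 in shPNISR and 8.11 ± 0.32 in shNC, overlapped PRPF4B in its spread. CLK1 (3.20 ± 0.69 and 4.13 ± 1.04 in shPNISR and shNC), CLK3 (3.73 ± 0.29 and 3.47 ± 0.85) and CCNL1 (2.92 ± 0.86 and 4.21 ± 0.76) lay within each other's spread. DYRK1A and CLK4 were lowest, at 1.5 ± 0.05 and 0.84 ± 0.18 in shPNISR and 1.85 ± 0.26 and 1.02 ± 0.21 in shNC. The order depends on the length used: by the longest coding transcript CCNL2 came first, at 35.8 ± 4.22 in shPNISR and 42.8 ± 7.88 in shNC, and DYRK1A, whose longest model has 17562 bases, came last.

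By Pearson correlation of log2 CPM over the 6 libraries, the genes, of 11672, with a pattern most like CLK1 included TRMT13, DEPDC1B, CMAS and FGF2. Their r ran from 0.992 to 0.997, and 368 genes had r above 0.9. Those most like SRPK1 were NR3C1, LEF1, HOXC4, RADX and ZNF398, with r from 0.99 to 0.995 and 504 genes above 0.9. The 6 points share their libraries and scaling, so these are descriptions.

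The proteins that these kinases act on or with were measured in 4 lists of 50 genes, of which 47 were tested and none passed by edgeR or limma voom, while DESeq2 called CDK13. At an unadjusted p under 0.05 by edgeR there were 4 SR proteins, 3 related kinases, 1 gene of the phosphatase and import list and 4 other spliceosomal substrates, all lower in shPNISR, where 7.79% of all tested genes were. Of the 14 SR proteins, 13 had a fitted value below 0, with a median of -0.29 that was -0.16 with the GC and length correction. SRSF3 had 489, 534 and 461 CPM in shPNISR and 621, 424 and 672 CPM in shNC, with shNC 2 the lowest library, and SRSF9 averaged 362 ± 39.8 CPM in shPNISR and 345 ± 31.7 CPM in shNC (SD, n = 3 each). Without shNC 2, 9 of the 14 SR proteins were called lower, from -0.81 for SRSF6 to -0.36 for TRA2B, where 4.52% of tested genes were. With the correction added 6 of the 14 were called lower, where 8.11% of tested genes were. Groups did not overlap in 2 of the 14 SR proteins, SRSF4 and SRSF11, named after their values were seen. Both were lower in shPNISR (-0.24 ± 0.10 and -0.31 ± 0.12, adjusted p = 0.208 and 0.166 by edgeR). Of all tested genes, 9.58% had groups that did not overlap with shPNISR lower. The same held for 3 of 11 tested related kinases and cyclins and 2 of 12 other spliceosomal substrates. In the phosphatase and import list all groups overlapped.

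Of 11 tested related kinases and cyclins, 8 had a fitted value below 0 and the median was -0.21, or -0.14 with the GC and length correction. CDK12, which phosphorylates RNA polymerase II, averaged 94.9 ± 18.2 CPM in shPNISR and 123 ± 21.7 CPM in shNC, and its cyclin CCNK 81.4 ± 4.45 CPM and 81.0 ± 10.3 CPM in the same order (SD, n = 3 each). CDK13, named after its values were seen, had 35.6, 37.1 and 39.3 CPM in shPNISR and 59.3, 42.9 and 52.3 CPM in shNC, and came nearest to a call in these lists (-0.47 ± 0.13, adjusted p = 0.0626 by edgeR). It passed with DESeq2 (adjusted p = 0.0369), where 1.42% of tested genes were called lower. By edgeR it passed with no low-count filter (adjusted p = 0.0191), where 1.2% were called lower. By edgeR it also passed without shNC 2 (adjusted p = 0.00348), where 4.52% were called lower. With the GC and length correction added, CDK13 (-0.45, adjusted p = 0.00829) and DYRK1B (-0.50, adjusted p = 0.0168) passed by edgeR, where 8.11% were called lower. CDK12 passed by edgeR when shNC 3 was left out (-0.48, adjusted p = 0.0348), where 1.34% of tested genes were called lower. It also passed by edgeR when low counts were not filtered (adjusted p = 0.0464), where 1.2% were called lower. CDK11B, the partner of the L-type cyclins and chosen for that role, averaged 60.8 ± 3.35 CPM in shPNISR and 59.0 ± 2.09 CPM in shNC. Its near-identical copy CDK11A was at 0.121 and 0.147 CPM and was not tested, so the split of reads between the pair is uncertain. SRPK3 and HIPK4 were also too low to test.

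Among 10 phosphatases, nuclear import factors and the SR protein kinase TOP1, 8 lay below 0 with a median of -0.09. With the GC and length correction 6 did, with a median of -0.0064. When shNC 2 was also left out, PPP1R8 was called lower (-0.31, adjusted p = 0.0297 by edgeR), where 8.11% of tested genes were. PPM1G, a nuclear phosphatase, averaged 350 ± 33.3 CPM in shPNISR and 334 ± 9.80 CPM in shNC, and PPP1CC, a catalytic subunit of protein phosphatase 1, 320 ± 12.9 CPM and 322 ± 11.8 CPM in the same order (SD, n = 3 each). Among 12 other spliceosomal substrates 9 lay below 0 with a median of -0.17. With the GC and length correction all 12 did, with a median of -0.21. Without shNC 2, PNN (-0.42, adjusted p = 0.0255 by edgeR) and ACIN1 (-0.35, adjusted p = 0.0462) were called lower, where 4.52% of tested genes were. With the correction added, U2AF2 (-0.39, adjusted p = 0.0207 by edgeR), ACIN1 (-0.44, adjusted p = 0.00691) and PNN (-0.30, adjusted p = 0.0366) were called lower. In that fit 8.11% of tested genes were. SRRM2 was called lower without shNC 3 (-0.51, adjusted p = 0.0408 by edgeR), where 1.34% of tested genes were. SRRM2, a speckle scaffold, averaged 516 ± 121 CPM in shPNISR and 660 ± 136 CPM in shNC, and U2AF2, which helps to recognise the 3' splice site, 423 ± 40.9 CPM and 451 ± 41.8 CPM in the same order. U2AF1, the partner of U2AF2, was named after its values were seen, because its fitted value lay farthest from 0 in this list. It had 8.94, 3.78 and 2.88 CPM in shPNISR and 25.4, 4.01 and 7.46 CPM in shNC (-1.25 ± 0.92, adjusted p = 0.561 by edgeR), so that the groups overlapped and shNC 1 was far above the other libraries. With the replicate number as a block U2AF1 was called lower (-1.05, adjusted p = 0.0241 by edgeR), where 118 of the 16102 tested genes were. A near-identical copy of U2AF1 in GRCh38 leaves its count uncertain. SF3B1, a DYRK1A target, and the PRPF4B targets PRPF6 and PRPF31, chosen for those roles with results known, had log2 fold changes of -0.24 ± 0.11, 0.03 ± 0.11 and 0.07 ± 0.11 (adjusted p = 0.234, 0.92 and 0.771 by edgeR).

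**Figure D4:**
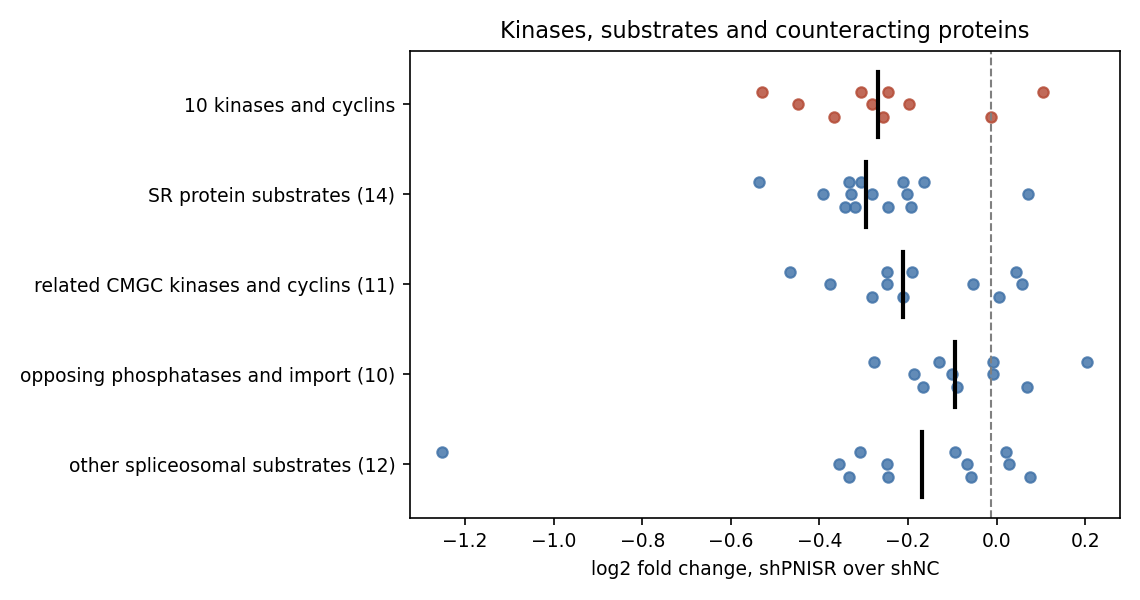
Log2 fold change of shPNISR over shNC for the 10 kinases and cyclins (red) and the tested genes of 4 related lists (blue, number tested in brackets); black bars are medians and the dashed line is the median of all 16102 tested genes, -0.013. No gene shown passed the test. Medians run from -0.29 for SR proteins to -0.09 for phosphatases and import factors.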

How the data were processed

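The authors deposited raw read counts as whole numbers, with 1 row per Ensembl gene ID and 1 column per library. HISAT2 2.0.4 and GRCh38 are named per the submitters' processing notes; no counter, annotation release or strand setting is given in the sources used here. Of 60664 IDs, 60463 had a symbol. Genes were kept by edgeR's filterByExpr (minimum count 10, minimum total 15), which left 16102, scaled with TMM factors and compared with edgeR 4.0.16 in R 4.3.3 (robust quasi-likelihood test, two-sided, Benjamini-Hochberg threshold 0.05). Log2 CPM used a prior count of 2. Within each group the counts of any 2 libraries differed beyond sampling noise, so all 6 were kept. The 18 alternatives used other scalings, filters, DESeq2 1.42.0, voom of limma 3.58.1, dispersion without robust estimation, a replicate block, a loess correction (span 0.4) for GC content and exon length from GENCODE release 29, which held 99.35% of the tested genes, and each library left out. In a simulation of shPNISR against shNC with 15865 genes, edgeR found 91 of 100 planted 2-fold changes, 63 of 100 planted 1.5-fold changes and 12 false ones. Changes were planted only in genes with an expected count above 100. Each simulated count was drawn separately, so no simulated library shifted many genes together as shNC 2 did. The fitted change of each member was smaller than 1.5-fold, so these rates do not give the power for the members. The members, lists and alternatives were chosen with earlier results of these data known. All members were named, with PNISR, up to 4 called genes per list or else the 2 with the highest CPM, and the 5 genes most like CLK1 and SRPK1 among those with a mean of at least 5 CPM (1 is not reported here); other names were added with results known: kinase partners and targets for their roles, and the rest for their values. Figures used matplotlib 3.10.9.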

Additional observations from a re-analysis of the deposited data

How the results depend on the processing

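With other scalings, a mean of at least 1 CPM, DESeq2, limma voom, no robust dispersion or the correction for GC content and exon length, none of the 10 genes was called. With no low-count filter 2 were lower, CCNL1 (-0.54) and PRPF4B (-0.46), and the cause was not tested. Between libraries of the same replicate number the correlation of deviations was 0.12, -0.08 and -0.15 for numbers 1 to 3. Only shPNISR 1 correlated best with its own number. Deviations were taken from each group's mean over 3 libraries, so the correlations are tied and cannot decide whether the numbers pair the libraries. With the replicate number as a block 1 member was lower, CCNL1 (-0.55, adjusted p = 0.0408), and U2AF1 of the related lists (-1.05, adjusted p = 0.0241), where 118 of the 16102 tested genes were called lower and 390 higher. With the block and the GC correction no member was. SRPK2 moved above 0 with upper-quartile factors (0.012), the GC correction (0.086), and the block with that correction (0.084). With the GC correction without shNC 2, SRPK2 was at 0.084, PRPF4B at -0.42, CCNL1 at -0.43 and CCNL2 at -0.46, and 3 members were lower. Leaving out 1 library gave 0 to 4 members lower and ranges of -0.52 to -0.16 for CLK1, -0.30 to -0.12 for CLK2, -0.010 to 0.32 for CLK3, -0.46 to -0.12 for CLK4, -0.095 to 0.058 for SRPK2, -0.42 to -0.22 for DYRK1A, -0.61 to -0.33 for PRPF4B, -0.80 to -0.39 for CCNL1 and -0.40 to -0.16 for CCNL2. Over all genes, 371 were higher and 134 lower. Leaving out 1 library gave 133 to 1284 higher and 30 to 746 lower, no low-count filter 642 and 354, and the GC correction without shNC 2 gave 1167 and 1338. Library totals gave 71 lower and DESeq2 229. PNISR passed in all 18. The 3 libraries per group and the 89 to 148 reads of CLK4 limit the precision.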
